A study of Homo sapiens with 6 samples.

Results

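The products of 10 genes that restrain the growth kinase complex mTORC1 are described here by their transcripts: RNF152, DDIT4, SESN1, SESN2, SESN3, TSC1, TSC2, DEPDC5, NPRL2 and NPRL3. Their rows were found by matching gene identifiers, without version, to GENCODE release 29 symbols, and all 10 were present among 18278 listed genes. RNF152 and DDIT4 were chosen by their normalized read counts and fold change between the groups, so those values are given as a description without a test. The other 8 were named for their place in the pathway, with results of the same contrast known, and are described in the same way. The RNA was from Toledo, a long-established B lymphoma line of human origin that grows in suspension. Polyadenylated RNA was sequenced in 3 samples after 6 days of TP-064 at 5 uM, which inhibits the arginine methyltransferase CARM1, and in 3 samples after 6 days with DMSO, its solvent. All 6 samples come from 1 cell line. The labels do not say whether replicates were separate cultures, so p-values rest on a spread between samples that may be technical only.

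Nutrient sensing reaches mTORC1 on the lysosome along a pair of routes. In one, amino acids load the Rag GTPases, which bring mTORC1 to the lysosomal surface. The GATOR1 complex, made of DEPDC5, NPRL2 and NPRL3, switches the Rags off, and sestrins release GATOR1 by holding its antagonist GATOR2. RNF152, a ubiquitin ligase anchored in the lysosomal membrane, marks RagA and so favours its binding to GATOR1. In the other route, the small GTPase RHEB activates mTORC1, and the TSC complex of TSC1, TSC2 and TBC1D7 switches RHEB off. DDIT4, also called REDD1, is a stress-induced protein that frees TSC2 to act. In B cells the pathway sets growth and metabolism downstream of antigen receptor signals.

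Of the 10 transcripts, 8 were higher in TP-064 samples and 2 were lower. Their 3 TP-064 values and 3 DMSO values did not overlap for 10 of 10 transcripts (8 higher and 2 lower), as was so for 69.1% of the 16048 genes tested, 33.9% higher and 35.2% lower. The difference passed a limma adjusted p of 0.05 over all genes for 10 of 10 against a background of 65.1%, with 8 higher (background 31.9%) and 2 lower (background 33.3%). Nothing is read from these counts, because the contrast was used in choosing the genes. The median log2 fold change of the 10 was 0.57, beside 0.01 over all genes tested. A normalized read count is the number of reads of a gene divided by the size factor of its library. Each log2 fold change is the difference, TP-064 minus DMSO, of the mean log2 of that count plus 1. The order of size ran from RNF152, DDIT4, SESN3, TSC1 and DEPDC5, each over 0.5 without overlap (16.4% of all genes), through SESN1, TSC2 and SESN2 to NPRL2 and NPRL3 on the negative side. These are bulk samples, so fewer cells expressing a gene and less RNA per cell cannot be told apart.

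**Figure D1:**
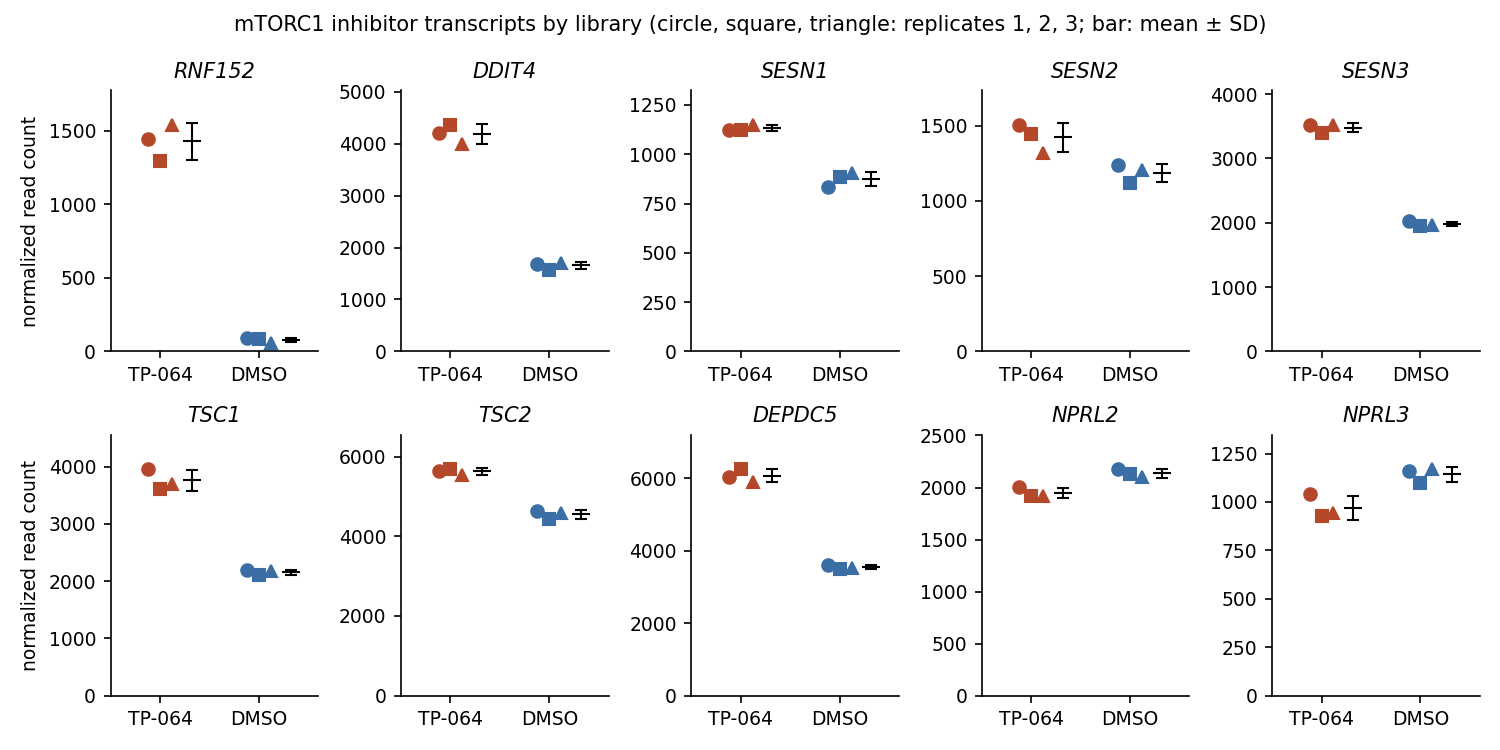
Normalized read count (linear axis from 0) of each of the 10 mTORC1 inhibitor transcripts in the 3 TP-064 libraries (red) and the 3 DMSO libraries (blue), with black bars for the mean ± SD. The groups are apart in every panel, by the largest fold for RNF152 (means of 1427 in TP-064 samples and 77.1 in DMSO samples) and by a narrow margin for NPRL2 and NPRL3.

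The libraries held 41354131 to 48360867 reads over the listed genes. On the first principal component, which held 75.0% of the variance, the groups were apart, and on the second, with 11.6%, TP-064 replicate 3 lay at -35.2 while the other 5 libraries lay between -6.37 and 21.3. Some values without that library are given below. All 7 B cell markers were listed, with a summed level of 101883 to 109847 normalized read counts in TP-064 samples and 106428 to 108402 in DMSO samples. Of 5 T cell markers 1 was listed (sums of 83.1 to 90.0 in TP-064 samples and 24.9 to 39.8 in DMSO samples), and of 5 myeloid markers 3 were (71.2 to 99.5 in TP-064 samples and 34.6 to 65.6 in DMSO samples). Of these myeloid markers CSF1R rose by 2.35 (limma adjusted p = 1.37e-05) and CD14 fell by 1.30 (limma adjusted p = 0.0117) on the log2 scale. LYZ was not called. Of 7 markers grouped as erythroid, epithelial, stromal or endothelial 2 were listed, at sums of 394 to 435 in TP-064 samples and 308 to 339 in DMSO samples. They moved in opposite directions: PECAM1 rose by 3.02 (limma adjusted p = 4.63e-11) and COL1A1 fell by 1.07 (limma adjusted p = 7.90e-08) on the log2 scale. PECAM1, an adhesion molecule that leukocytes carry too, had a mean of 272 in TP-064 samples, so the sum is not specific to these cell types. Of the 7 B cell markers 2 rose and 4 fell, so their near-equal sums hide changes of single genes. The largest rise was that of MS4A1, by 0.90 on the log2 scale (limma adjusted p = 2.75e-10). CD22 fell most, by 2.54 (limma adjusted p = 2.64e-13). The part of these markers in the results was not tested. CARM1 mRNA was at 3401, 3500 and 3371 normalized read counts in TP-064 samples and 4003, 3884 and 4217 in DMSO samples. The CARM1 log2 fold change was -0.24 (SE 0.04, limma adjusted p = 8.10e-05), a lower level in TP-064 samples. TP-064 acts on the enzyme, so the labels are not checked by the level of this mRNA.

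RNF152 differed most. It had 1447, 1293 and 1543 normalized read counts in TP-064 replicates 1, 2 and 3, and 88.2, 82.5 and 60.6 in DMSO replicates 1, 2 and 3. The transcript was thus low in every DMSO library, and the groups were far apart. The means were 1427 ± 126 in TP-064 samples and 77.1 ± 14.6 in DMSO samples (SD, n = 3 each), an 18.5-fold difference and a log2 fold change of 4.21 (SE 0.12). By size of rise it held rank 14 among the 16048 genes tested, and rank 5 among 10202 protein-coding genes whose mean normalized read count was 100 or more. The spread between DMSO libraries, a coefficient of variation of 19.0%, was the largest of any of the 10 genes in either group, and DMSO replicate 3 was the lowest of them. Without that replicate the log2 fold change was 4.04, the lowest value over the alternative settings, and with library size scaling it was 4.33, the highest.

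Set against transcript length, RNF152 was the least abundant of the 10 transcripts in both groups. Its level was 150 normalized read counts per kilobase in TP-064 samples and 8.12 in DMSO samples, with a principal coding transcript of 9501 bases. Among 12118 protein-coding genes with a transcript length, this placed it at percentile 29.8 in TP-064 samples and percentile 6.65 in DMSO samples. On GRCh38 its coordinates are chromosome 18, 61808063 to 61894247, minus strand, and 0 bases of its exons are shared with an opposite-strand exon. A few protein-coding genes had log2 profiles nearest to that of RNF152 over the 6 libraries, by Euclidean distance after centring each gene on its mean. They were KCNN2, a calcium-activated potassium channel (distance 0.56), DNTT, the template-independent polymerase of lymphocyte precursors (0.58), and C1orf167 (0.67). With 3 libraries per group this distance depends largely on the fold change, so a near profile mostly restates the contrast. DNTT is far more abundant, at 5063 ± 213 normalized read counts in TP-064 samples and 235 ± 15.9 in DMSO samples (SD, n = 3 each). KCNN2 had 244 ± 17.3 in TP-064 samples and 14.8 ± 5.24 in DMSO samples (SD, n = 3 each). C1orf167 is low, with 22.7, 18.8 and 34.5 normalized read counts in TP-064 samples and 1.04, 0.994 and 0 in DMSO samples.

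DDIT4 had the second largest difference and was far more abundant. Its normalized read counts were 4203, 4367 and 3984 in TP-064 replicates 1, 2 and 3, and 1687, 1569 and 1708 in DMSO replicates 1, 2 and 3. The lowest TP-064 library was thus far above the highest DMSO library. The means were 4185 ± 192 in TP-064 samples and 1654 ± 74.9 in DMSO samples (SD, n = 3 each), a 2.53-fold difference with a log2 fold change of 1.34 (SE 0.05). Per kilobase DDIT4 stood at 2394 in TP-064 samples and 946 in DMSO samples, which is percentile 90.4 of protein-coding genes in TP-064 samples and percentile 71.1 in DMSO samples. By size of rise it held rank 580 among all genes tested and rank 209 among the well expressed protein-coding genes.

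DDIT4 spans chromosome 10, 72273920 to 72276036, plus strand, and 847 bases of its exons (41.2%) are covered by exons of DDIT4-AS1 on the minus strand. The kit marks strand, but the strand setting used for counting was not stated. DDIT4-AS1 had 3.50, 2.97 and 60.9 normalized read counts in TP-064 replicates 1, 2 and 3, and 3.11, 0.994 and 1.08 in DMSO replicates 1, 2 and 3. Its level was thus raised in TP-064 replicate 3 alone, the library in which DDIT4 itself was lowest of the TP-064 samples. Its part in the DDIT4 value was not tested. Without TP-064 replicate 3 the log2 fold change of DDIT4 was 1.37. Nearest to DDIT4 in profile were DYRK3 (distance 0.09), a protein kinase, KIFC2 (0.09), a kinesin, and FLCN (0.09), the folliculin protein that acts on RagC and RagD. FLCN had 3014, 3059 and 2878 normalized read counts in TP-064 samples and 1174, 1073 and 1140 in DMSO samples.

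The 3 sestrins are stress-induced proteins that bind GATOR2, and SESN2 is known as a sensor of leucine. SESN3 differed most of them, with 3516, 3392 and 3526 normalized read counts in TP-064 samples and 2023, 1955 and 1962 in DMSO samples. The groups were far apart relative to their spread, at 3478 ± 74.9 in TP-064 samples and 1980 ± 37.5 in DMSO samples (SD, n = 3 each), and the log2 fold change was 0.81 (SE 0.04). SESN1, first known as a target of p53, had 1125, 1125 and 1151 in TP-064 samples and 836, 886 and 904 in DMSO samples, a log2 fold change of 0.37 (SE 0.05). SESN2 had 1507, 1444 and 1318 in TP-064 samples and 1236, 1117 and 1205 in DMSO samples, a log2 fold change of 0.26 (SE 0.06). The lowest TP-064 library of SESN2, replicate 3, was close to its highest DMSO library, and without TP-064 replicate 3 the log2 fold change was 0.32.

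Per kilobase of the principal transcript the 3 sestrins summed to 1099 normalized read counts in TP-064 samples and 800.1 in DMSO samples. SESN2 held the largest share in both groups, at 37.5% ± 1.83 in TP-064 samples and 42.9% ± 1.43 in DMSO samples (SD, n = 3 each). The SESN3 share was 33.1% ± 0.948 in TP-064 samples and 25.9% ± 0.532 in DMSO samples (SD, n = 3 each). SESN1 held 29.4% ± 0.955 in TP-064 samples and 31.2% ± 1.51 in DMSO samples (SD, n = 3 each), and its libraries overlap between the groups. With the union of all annotated exons as the length, SESN3 held 34.2% in TP-064 samples and 26.7% in DMSO samples. The ratio of SESN3 to SESN1 reads, which does not depend on scaling between libraries, was 3.13, 3.02 and 3.06 in TP-064 samples and 2.42, 2.21 and 2.17 in DMSO samples. SESN1 (chromosome 6, 108986437 to 109094819, minus), SESN2 (chromosome 1, 28259527 to 28282491, plus) and SESN3 (chromosome 11, 95165513 to 95232541, minus) are unlinked. SESN3 overlaps exons of AP000787.1 on the opposite strand over 93 bases, and that gene had at most 84.8 normalized read counts in a library.

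In the TSC complex, TSC1 and TSC2 were both higher after TP-064, by different amounts. TSC1, which stabilises the complex, had 3960, 3612 and 3701 normalized read counts in TP-064 samples and 2186, 2105 and 2172 in DMSO samples. TSC2, the subunit that switches RHEB off, had 5647, 5695 and 5544 in TP-064 samples and 4632, 4424 and 4595 in DMSO samples. The log2 fold changes were 0.80 (SE 0.04) for TSC1 and 0.31 (SE 0.03) for TSC2. Reads of TSC1 per read of TSC2 were 0.701, 0.634 and 0.668 in TP-064 samples and 0.472, 0.476 and 0.473 in DMSO samples. TBC1D7, the smaller subunit of the complex and not among the 10 genes, fell by 0.48 on the log2 scale (SE 0.05, limma adjusted p = 6.34e-07), to 922 ± 45.7 normalized read counts in TP-064 samples, against 1289 ± 23.5 in DMSO samples (SD, n = 3 each). Reads of TBC1D7 per read of TSC1 averaged 0.246 ± 0.0228 in TP-064 samples and 0.598 ± 0.00127 in DMSO samples (SD, n = 3 each), without overlap. The 3 subunit transcripts of the complex thus did not move together. TSC1 spans chromosome 9, 132891348 to 132946874, minus strand, and TSC2 chromosome 16, 2047465 to 2089487, plus strand. TSC2 shares 1180 exon bases with NTHL1 and PKD1 on the opposite strand, 6.01% of its exon length. NTHL1 fell by 0.45 on the log2 scale (limma adjusted p = 3.43e-06) and PKD1 rose by 0.47 (limma adjusted p = 4.95e-08), and their part in the TSC2 value was not tested.

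The GATOR1 subunit transcripts differed in direction too. DEPDC5, the subunit that docks onto the Rags, had 6034, 6254 and 5899 normalized read counts in TP-064 samples and 3610, 3488 and 3523 in DMSO samples. NPRL2, the subunit that switches RagA off, had 2002, 1914 and 1920 in TP-064 samples and 2180, 2125 and 2099 in DMSO samples. NPRL3, the scaffold partner of NPRL2, had 1041, 927 and 941 in TP-064 samples and 1158, 1097 and 1171 in DMSO samples. DEPDC5 was thus well above its DMSO range in each TP-064 library, while both partners lay below theirs by a small margin. The log2 fold changes were 0.78 (SE 0.04) for DEPDC5, -0.13 (SE 0.04) for NPRL2 and -0.24 (SE 0.06) for NPRL3. When libraries were scaled by their totals, the median of all genes was 0.13, NPRL2 was at -0.01 and NPRL3 at -0.11, and neither passed the test. DEPDC5 was at 0.90 under the same scaling.

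Ratios within a library are free of that scaling. Reads of DEPDC5 per read of NPRL2 were 3.01, 3.27 and 3.07 in TP-064 samples and 1.66, 1.64 and 1.68 in DMSO samples. Reads of NPRL3 per read of NPRL2 were 0.520, 0.484 and 0.490 in TP-064 samples and 0.531, 0.516 and 0.558 in DMSO samples, so the groups overlap. Per kilobase of the principal transcript, DEPDC5 held 39.3% ± 1.17 of the summed GATOR1 level in TP-064 samples and 25.3% ± 0.0480 in DMSO samples (SD, n = 3 each). NPRL2 remained the largest part, at 48.0% ± 0.635 in TP-064 samples and 58.2% ± 0.548 in DMSO samples (SD, n = 3 each). The NPRL3 share was 12.7% ± 0.606 in TP-064 samples and 16.5% ± 0.501 in DMSO samples (SD, n = 3 each). DEPDC5 spans chromosome 22, 31753867 to 31908033, plus strand, NPRL2 chromosome 3, 50347330 to 50351091, minus strand, and NPRL3 chromosome 16, 84271 to 138860, minus strand. NPRL3 shares 909 exon bases (13.8%) with MPG and Z69720.1 on the opposite strand. MPG, a DNA repair glycosylase, rose by 0.84 (SE 0.06, limma adjusted p = 9.57e-09), the direction opposite to that of NPRL3. NPRL2 shares 397 exon bases (10.8%) with CYB561D2, a symbol with 2 listed entries. Its protein-coding entry rose by 0.21 (limma adjusted p = 0.0107) and its antisense entry rose by 1.61 (limma adjusted p = 0.000454), and their part in the NPRL2 value was not tested.

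**Figure D2:**
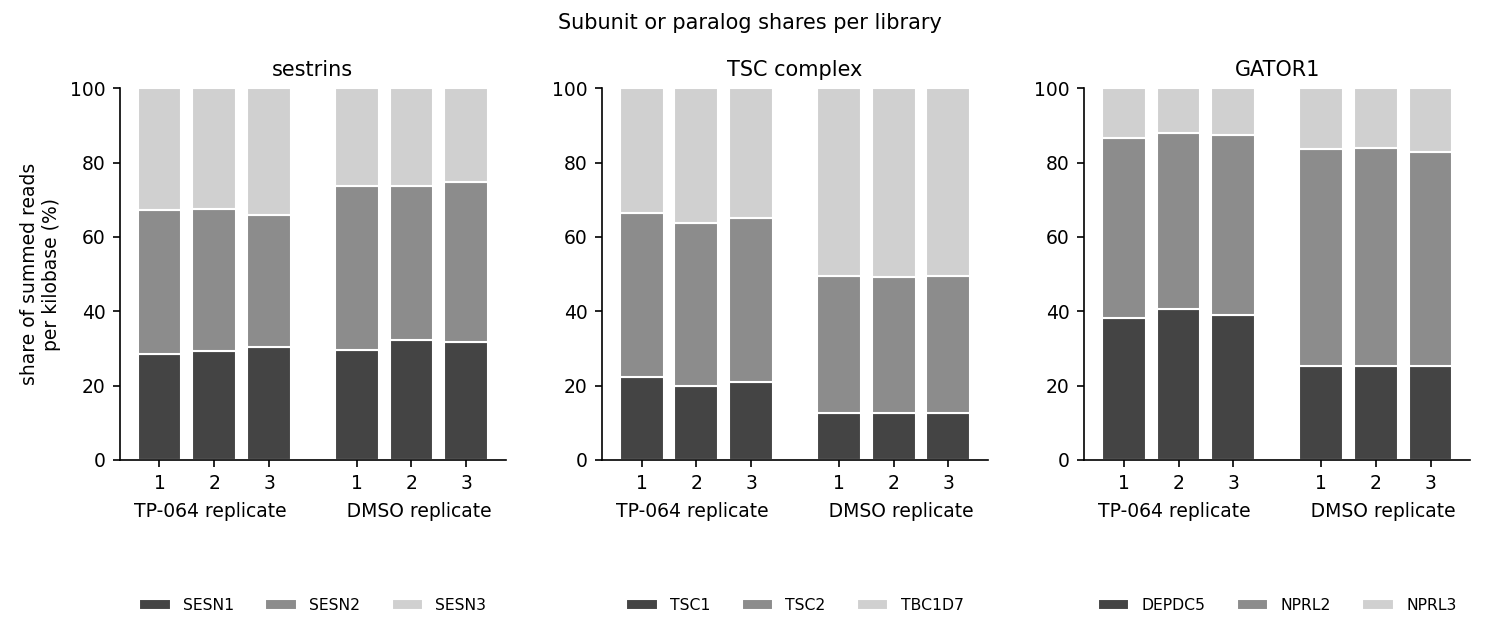
Share (%, from 0 to 100) of each transcript in the summed reads per kilobase of the 3 sestrins, the 3 TSC complex subunits and the 3 GATOR1 subunits, as 1 stacked bar per library, TP-064 replicates left and DMSO replicates right. SESN3, TSC1 and DEPDC5 hold a larger share in each TP-064 library than in any DMSO library, and TBC1D7, NPRL2 and NPRL3 a smaller one.

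The order of the 10 levels per kilobase differed between the groups. In TP-064 samples it ran DDIT4 (2394), NPRL2 (1144), DEPDC5 (936), TSC2 (913), TSC1 (436), SESN2 (412), SESN3 (364), SESN1 (323), NPRL3 (303) and RNF152 (150). In DMSO samples it ran NPRL2 (1256), DDIT4 (946), TSC2 (738), DEPDC5 (546), NPRL3 (356), SESN2 (344), TSC1 (250.02), SESN1 (249), SESN3 (207) and RNF152 (8.12). Neighbours whose libraries overlap are not ordered by these data. In TP-064 samples these were DEPDC5 with TSC2, TSC1 with SESN2, and SESN1 with NPRL3, and in DMSO samples NPRL3 with SESN2 and TSC1 with SESN1. The lengths are those of the principal transcripts, and the order depends on that choice. With the union of all annotated exons as the length, SESN2 (412) lay above DEPDC5 (350) and TSC2 (287) in TP-064 samples. In DMSO samples SESN2 (344) then lay above TSC2 (232) and DEPDC5 (204).

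**Figure D3:**
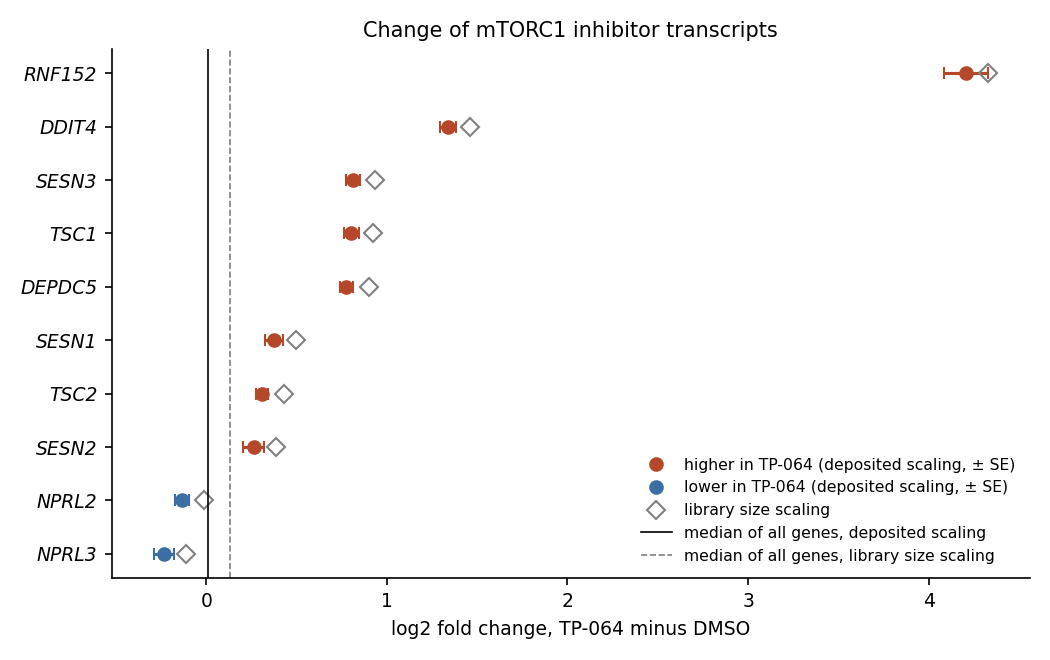
Log2 fold change (TP-064 minus DMSO) of each of the 10 transcripts under the deposited scaling (filled circles with SE) and under library size scaling (open diamonds), with the median of all genes under each as a vertical line. Under library size scaling each value lies about as far to the right as the median of all genes, which is 0.13 there and 0.01 under the deposited scaling, and NPRL2 comes to lie at -0.01.

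Promoter windows were taken from RefSeq (GRCh38.p14) as the 250 bases before each annotated start, which gave 14 windows for 9 of the 10 genes. DDIT4 is shown as the gene with the largest difference among these 9, and the 3 GATOR1 genes because their transcripts differed in direction. Capitals mark the hypoxia core ACGTG, the CCAAT box or the GC box GGGCGG on either strand, and each sequence runs 5′ to 3′ on the strand of its gene.
DDIT4, chr10:72273674-72273923, plus strand: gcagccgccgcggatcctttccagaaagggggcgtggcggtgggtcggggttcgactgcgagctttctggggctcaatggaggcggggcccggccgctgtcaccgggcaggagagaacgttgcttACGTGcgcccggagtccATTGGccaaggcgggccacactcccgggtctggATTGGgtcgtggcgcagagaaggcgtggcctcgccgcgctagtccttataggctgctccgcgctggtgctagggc
DEPDC5, chr22:31753718-31753967, plus strand, the first of 3 annotated starts: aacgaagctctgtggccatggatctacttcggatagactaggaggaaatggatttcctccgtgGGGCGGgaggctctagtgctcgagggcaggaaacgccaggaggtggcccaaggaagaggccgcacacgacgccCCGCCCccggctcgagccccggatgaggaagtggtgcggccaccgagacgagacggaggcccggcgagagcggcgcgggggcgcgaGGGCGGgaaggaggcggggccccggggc
NPRL2, chr3:50350776-50351025, minus strand: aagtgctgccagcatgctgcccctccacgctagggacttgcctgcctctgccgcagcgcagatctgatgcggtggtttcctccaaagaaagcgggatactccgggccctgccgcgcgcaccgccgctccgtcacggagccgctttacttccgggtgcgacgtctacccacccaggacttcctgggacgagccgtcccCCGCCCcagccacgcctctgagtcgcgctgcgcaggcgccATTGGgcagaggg
NPRL3, chr16:138674-138923, minus strand: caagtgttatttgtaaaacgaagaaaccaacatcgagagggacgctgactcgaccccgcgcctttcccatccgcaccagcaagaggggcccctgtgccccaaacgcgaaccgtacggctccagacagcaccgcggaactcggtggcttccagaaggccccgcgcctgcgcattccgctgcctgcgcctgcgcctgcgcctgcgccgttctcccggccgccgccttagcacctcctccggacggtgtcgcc

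The DDIT4 window holds CCAAT on the other strand, printed as ATTGG, at 108 and 75 bases before the start, and ACGTG at 125. DEPDC5 has the GC box GGGCGG at 187, 114 and 28 bases before this start, the one at 114 on the other strand. NPRL2 has the GC box at 53 and CCAAT at 13, both on the other strand. In the NPRL3 window, as in that of SESN3, none of the 7 motifs searched was found. Those were an E-box (CACGTG), the hypoxia core it contains (ACGTG), a FOXO motif (GTAAACA), the core of a cyclic AMP response element (TGACGT), the CCAAT box, the GC box and a core bound by C/EBP and ATF factors (TGATGCA), each read on both strands. Of 35093 windows of the same length over all genes, 6.34% hold the E-box, 18.5% the hypoxia core, 2.98% the FOXO motif, 7.1% the cyclic AMP core, 32% the CCAAT box, 42.6% the GC box and 2.16% the C/EBP and ATF core. Among the 9 genes, the GC box was found in 6, the CCAAT box in 4 and the hypoxia core in 2. Some genes have more than 1 window, so these counts are not on the scale of the shares above. Of the 14 windows, 11 hold the GC box, 5 the CCAAT box and 2 the hypoxia core. The 3 windows of DEPDC5 overlap for the most part. The E-box and the C/EBP and ATF core were found in 1 each, both in the first window of TSC2. The FOXO motif and the cyclic AMP core were found in 0 of the 9. By base composition SESN3 stood apart, with 42.8% G and C and 7 CpG in its window, where the median of all windows is 58% and 11 CpG. The other 13 windows held 60.4% to 77.2% G and C. A match is a description of letters and not a binding site, and a missing match says only that these letters are not in the window.

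The other genes of the pathway were read from lists chosen for their roles, with earlier results of these data known. The test was applied over all genes. Genes named from a list with an adjusted p are its largest called rise and fall among genes with a mean of at least 100. Their p-values are therefore descriptive. Among 10 tested genes for other mTORC1 inhibitors and the KICSTOR anchor of GATOR1, 4 rose and 1 fell, with a median of 0.17. DEPTOR, which binds mTOR and restrains it, rose by 0.80 (SE 0.12, limma adjusted p = 4.35e-05), and the gene that fell was TBC1D7. Of the 5 GATOR2 subunits, which the sestrins bind, 1 rose and 2 fell, or 3 and 2 under library size scaling. SEH1L, a beta propeller subunit, fell by 0.76 (SE 0.04, limma adjusted p = 6.27e-11) and WDR59 rose by 0.38 (SE 0.04, limma adjusted p = 1.78e-06). Of 9 genes of the mTOR complexes and RHEB, 2 rose and 4 fell, with a median of -0.08, or 0.04 with library size scaling. TTI1, a cofactor of mTOR assembly, fell by 0.35 (SE 0.04, limma adjusted p = 2.42e-06) and RICTOR, the defining subunit of mTORC2, rose by 0.16 (SE 0.04, limma adjusted p = 0.00214).

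The Rag GTPases, on which GATOR1 and RNF152 act, moved largely upward. Of 13 genes for the Rags, the Ragulator anchor and folliculin with its partners, 9 rose and 1 fell, with a median of 0.46. RRAGD, which pairs with RagA or RagB, had 2339, 2320 and 2310 normalized read counts in TP-064 samples and 489, 476 and 516 in DMSO samples, a rise of 2.23 (SE 0.05, limma adjusted p = 2.38e-14). Reads of RRAGD per read of its paralog RRAGC were 3.94, 3.69 and 3.23 in TP-064 samples and 1.12, 1.07 and 1.12 in DMSO samples. LAMTOR5, a Ragulator subunit, fell by 0.25 (SE 0.04, limma adjusted p = 0.000134). FLCN, the third neighbour of DDIT4 in profile, belongs to this list too. Its nearness mostly restates a like log2 fold change, 1.40 for FLCN and 1.34 for DDIT4. A link between FLCN and DDIT4 was not tested.

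**Figure D4:**
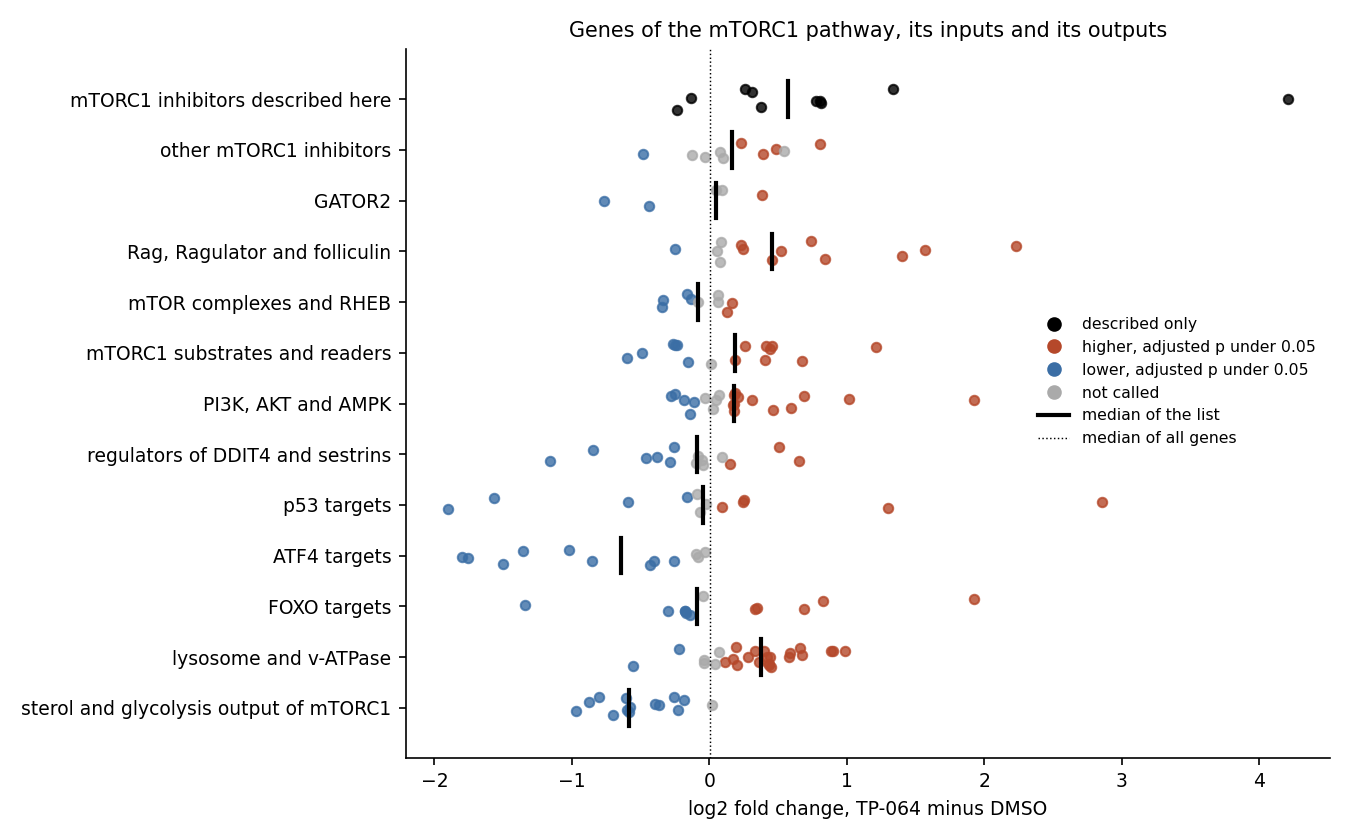
Log2 fold change (TP-064 minus DMSO) of each tested gene by list, colored by whether it passed a limma adjusted p of 0.05, with a bar at the median of each list and a dotted line at the median of all genes. The mTORC1 inhibitors (black, described only) have a median of 0.57. The lysosome list lies mostly to the right, with 20 of 26 genes higher. The list labelled sterol and glycolysis output of mTORC1 lies to the left, with 13 of 14 lower.

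Among mTORC1 substrates and readers, 8 of 15 tested genes rose and 6 fell. PDCD4, an inhibitor of translation that the pathway degrades, rose by 1.21 (SE 0.04, limma adjusted p = 1.00e-12), and RPS6KB1, which encodes S6 kinase, fell by 0.60 (SE 0.04, limma adjusted p = 1.26e-09). Of 26 genes of the lysosome and its proton pump, 20 rose and 2 fell, with a median of 0.38. ATP6V0A1, a pump subunit, rose by 0.98 (SE 0.06, limma adjusted p = 7.44e-10) and GLA, alpha-galactosidase, fell by 0.55 (SE 0.04, limma adjusted p = 2.40e-08). Another list held 14 genes that mTORC1 is known to raise, those of sterol, lipid and glucose metabolism with MTHFD2 and VEGFA. Of these, 13 fell and 0 rose, with a median of -0.58, or 12 and 1 under library size scaling. The activity of mTORC1 is not read from these RNA levels. SCD, a fatty acid desaturase, fell by 0.97 (SE 0.05, limma adjusted p = 1.96e-10).

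Upstream, 12 of 21 tested genes of PI3K, AKT and AMPK signalling rose and 5 fell, or 15 and 1 under library size scaling and 11 and 4 without TP-064 replicate 3. PIK3IP1, an inhibitor of PI3K, rose by 1.93 (SE 0.06, limma adjusted p = 4.33e-13), and PIK3CD, the leukocyte catalytic subunit, fell by 0.28 (SE 0.04, limma adjusted p = 7.87e-06). Of 14 tested genes that act on DDIT4 or the sestrins, 3 rose and 6 fell, with a median of -0.09, or 5 and 5 with a median of 0.03 under library size scaling. Without TP-064 replicate 3, 4 rose and 4 fell. FOXO4 rose by 0.65 (SE 0.05, limma adjusted p = 7.66e-09) and TP63, a relative of p53, fell by 1.16 (SE 0.05, limma adjusted p = 2.06e-11). Pathway genes, as counted here, are those of all these lists and of the ATF4, p53 and FOXO target lists described at the end. Each gene was counted once. Of 159 tested pathway genes 67 rose and 59 fell, where 31.9% of all genes tested rose and 33.3% fell. With scaling to library size 61.5% of all called genes were higher, against 48.9% under the deposited scaling. Under that scaling to library size 86 pathway genes rose and 44 fell. DEPTOR, TBC1D7 and the genes named in these lists kept their direction and their call under each alternative in which they were tested. Of them, TBC1D7, WDR59, LAMTOR5, RICTOR, PDCD4, PIK3IP1 and PIK3CD, and likewise DYRK3 and KIFC2, share exon bases with a gene on the opposite strand.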

How the data were processed

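Messenger RNA of the Toledo line was sequenced after 6 days with 5 uM TP-064 or with DMSO, 3 libraries each, from stranded libraries of polyadenylated RNA, per the labels' protocols. TopHat2 2.0.10, HTSeq 0.6.0 and DESeq 1.18.0 with hg38 are named in the submitters' processing notes. The annotation release, strand setting and row filter were not stated there. The authors deposited a signal per gene and library, reads per gene over a size factor for the library. All values were whole multiples of 1 step per column within 0.001, so reads were recovered. In 2 columns the step lies near 1 and recovery rests on unrounded decimals.

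limma 3.58.1 (R 4.3.3, trend option) was run on log2 of the value plus 1 for the 16048 genes with a mean of at least 10, with Benjamini-Hochberg adjustment over all of them, two-sided, and 4 residual degrees of freedom. The design had named this test for normalized values. Of these genes 10449 passed an adjusted p of 0.05. Symbols and coordinates are from GENCODE 29 on GRCh38, matched for 18214 of 18278 genes. Lengths are those of the longest APPRIS principal coding transcript. The procedure was tested on simulated data, where the planted changes were recovered and, in the single draw made, the share of false calls was somewhat above the nominal rate. The planted changes were larger than those of SESN1, SESN2, TSC2, NPRL2 and NPRL3, so recovery of changes that small was not tested.

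The members and lists were chosen with earlier results of these data known. Named genes are the members, the largest called rise and fall of each list among genes with a mean of at least 100, the 3 nearest profiles of RNF152 and of DDIT4, and CARM1. Alternatives were other pseudocounts (0.5 and 5), filters, library size scaling, edgeR 4.0.16 and DESeq2 1.42.0 on recovered reads, a replicate block, a threshold of 0.01 and leaving out each library. Intervals from counting were not used, since replicates give the spread.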

Additional observations from a re-analysis of the deposited data

How the results depend on the processing

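Counts of called genes stayed within 1.5 times of 10449 under every alternative, from 8969 at a threshold of 0.01 to 10811 with library size scaling. The counts of members stayed at 8 higher and 2 lower in each alternative except library size scaling, where 8 were higher and 0 lower (limma). The 2 that lost the call are NPRL2 and NPRL3. CARM1 was not followed over the alternatives. Of the 553 alternative values of the other 37 named genes, 0 changed direction. Members were judged by size against the spread between replicates, and genes that are not members by direction and call alone. By these rules 544 values stayed the same and 9 moved. The 9 were members under library size scaling, which moved the median of all genes to 0.13. Genes that are not members shifted there too, as TTI1 did from -0.35 to -0.22, but could not be counted as moved. C1orf167 was not tested without TP-064 replicate 3 or with a filter of 1 CPM in 3 samples, and ranged from 2.39 with a pseudocount of 5 to 5.20 with DESeq2.

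With 1 library left out, called genes numbered 9732 to 10247, pathway genes 119 to 127, and members 10. RNF152 then ranged from 4.04 to 4.31, DDIT4 from 1.30 to 1.37, and SESN2 from 0.22 to 0.32. No pairing by replicate number is stated in the labels. Deviations of libraries with the same number correlated at -0.09, 0.07 and -0.08, and those with unlike numbers at -0.11 to 0.15. With 3 libraries per group these values cannot settle whether samples were paired. With a replicate block 10491 genes, 128 pathway genes and 10 members were called. edgeR with TMM on the recovered reads called 10562 genes, 131 pathway genes and 10 members. Among the 10 genes, RNF152 in DMSO samples had the fewest reads behind it, at 60.6 to 88.2 normalized read counts.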

Other observations

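Lists of genes known as targets of ATF4, p53 and FOXO factors, also chosen with earlier results known, were counted as well. Named genes are again the extremes of their lists, so their p-values are descriptive. Of 12 ATF4 targets, 9 fell and 0 rose, with a median of -0.64. PSAT1, an enzyme of serine synthesis, fell by 1.80 (SE 0.08, limma adjusted p = 5.55e-11), to 145 ± 6.89 normalized read counts in TP-064 samples, against 508 ± 25.3 in DMSO samples (SD, n = 3 each). Of 12 p53 targets, 5 rose and 4 fell, or 5 and 3 under library size scaling and 4 and 4 without TP-064 replicate 3. TP53INP1, a stress-induced protein of autophagy and cell death, rose by 2.85 (SE 0.05, limma adjusted p = 6.55e-15), and CDKN1A, an inhibitor of cyclin-dependent kinases, fell by 1.90 (SE 0.09, limma adjusted p = 1.01e-10). Of 12 FOXO targets, 5 rose and 6 fell, or 6 and 2 under library size scaling and 5 and 4 without TP-064 replicate 3. PIK3IP1, named above, rose most, and KLF2, a factor of lymphocyte quiescence, fell by 1.34 (SE 0.10, limma adjusted p = 1.30e-08).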
